A study of Mus musculus with 20 samples.

Results

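The cytoplasmic ribosomal protein genes encode the proteins of the large (Rpl) and small (Rps) subunits of the ribosome that translates nuclear messages. They were taken from the deposited tables by symbol: Rpl or Rps followed by a number with at most one of the letters a, l, x or y, plus Rplp0, Rplp1, Rplp2 and Rpsa, which left out rows with a pseudogene suffix and the ribosomal S6 kinases. This gave 82 of 26214 genes, 50 named for the large and 32 for the small subunit. GENCODE annotates 80 of them as protein-coding, Rpl32l as a processed pseudogene and Rps4l as a transcribed processed pseudogene. A p-value stood beside 80 of them in each of the authors' deposited tables, and the other 2, Rpl26 and Rpl10l, were listed at 0 in both.

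The tables came from hearts (apex) of uninjured wild-type FVB/NRj mice aged P28 that had received AAV9, a vector that reaches heart muscle, by retro-orbital injection. The 4 groups of 5 mice were hTNNT2 Zeb2os (3 males), hTNNT2 control (0 males), CMV Zeb2os (1 male) and CMV control (2 males). Zeb2os is a non-coding RNA transcribed opposite Zeb2, hTNNT2 is a cardiac troponin T promoter used to direct expression to cardiomyocytes, and CMV is a promoter active in most cell types. The sources used here do not say what the control vectors carry. Total RNA was depleted of ribosomal RNA and sequenced, and the authors' deposited table of each promoter gives, per gene, the mean normalised count of its 10 libraries and the log2 fold change of Zeb2os over control with its standard error (SE). Values per mouse were not analysed here, so the spread between mice entered only through the deposited SEs and p-values. Sex could not enter a comparison: in the hTNNT2 pair, sex and Zeb2os cannot be told apart. The deposited Wald statistic has the opposite sign to the fold change in each row. The fold change was read as Zeb2os over control because that of Zeb2os itself is positive, and the direction of every fold change given here rests on this reading. In the authors' deposited tables Zeb2os itself was higher by 4.53 ± 0.083 (log2, SE) with hTNNT2 and by 3.66 ± 0.071 with CMV.

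Ribosomal proteins are made in near-equal amounts, and cells set their output largely at translation: their messages start with a run of pyrimidines, the 5′ terminal oligopyrimidine (TOP) tract, through which mTOR signalling and the protein Larp1 switch them on and off. The genes are short, very active and copied many times over the genome as processed pseudogenes. In the mouse, striated muscle carries a variant large-subunit protein, Rpl3l, in place of much of the Rpl3 that other tissues use. Both proteins sit near the centre where peptide bonds are formed.

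TOP tracts could be read from the RefSeq starts of 61 of the 82 members (build GRCm38.p6). A tract, taken as C at the annotated start followed by at least 4 further letters that are each C or T on the transcribed strand, stood at the start of 14 of the 61. It stood at the start of 813 of all 27025 genes with a RefSeq start (3.01%) and at 0 of 69 mitochondrial ribosomal protein genes, whose products work in the other ribosome of the cell. The 5 members with the highest counts among the 14 are shown with the tract in capitals, followed by Rpl3l and Rpl41, which had none at the annotated start and on which results below turn. Each run holds 10 bases before the start and 20 from it on.
Rps15a, chr7:118116128-118116157, minus strand: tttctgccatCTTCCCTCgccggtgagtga
Rpl14, chr9:120571507-120571536, plus strand: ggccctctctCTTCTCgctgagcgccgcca
Rplp2, chr7:141447641-141447670, plus strand: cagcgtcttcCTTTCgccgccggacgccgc
Rpl15, chr14:18270967-18270996, minus strand: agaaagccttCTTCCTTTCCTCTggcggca
Rpl35, chr2:39005112-39005141, minus strand: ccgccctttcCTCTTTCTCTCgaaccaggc
Rpl3l, chr17:24727816-24727845, plus strand: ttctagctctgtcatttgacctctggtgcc
Rpl41, chr10:128549149-128549178, minus strand: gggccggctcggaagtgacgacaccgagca
An annotated start that lies a few bases from the used one hides a tract, so a start without one describes the annotation and not the message.

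The copying of these genes bore on what their counts mean. Of the 50-base windows of each member's longest coding sequence, a median of 89.5% also occurred in the transcript of another annotated gene, and 25 of the 80 members with a coding sequence had every window shared. For 65 of the 80 the share was 50% or more, against 7 of the 78 mitochondrial ribosomal protein genes, whose median was 0%. Sharing genes were counted for 77 members and came to 1135, of which 1079 are annotated as pseudogenes. Of the 1079, 28 had a row in the authors' deposited tables. Rpl3l and Rpl39l were among the few that shared no window.

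Rpl3 and Rps6 show how close the copies are. The 60 bases from the middle of the Rpl3 coding sequence (its bases 607 to 666, gene at chr15:80077791-80091868, minus strand, GRCm38) recur unchanged in the pseudogene Rpl3-ps1 (chrX:13202571-13203780, plus strand), while Rpl3l (chr17:24727820-24736143, plus strand) differs there at 17 bases, given in capitals. The last pair gives bases 376 to 435 of Rps6 (chr4:86854660-86857412, minus strand) and the same stretch of Rps6-ps4 (chr2:75191073-75191822, minus strand).
Rpl3: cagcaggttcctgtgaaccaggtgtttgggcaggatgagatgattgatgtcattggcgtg
Rpl3-ps1: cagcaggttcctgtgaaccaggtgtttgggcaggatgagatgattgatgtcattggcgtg
Rpl3l: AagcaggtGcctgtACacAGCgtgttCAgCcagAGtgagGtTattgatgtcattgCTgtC
Rps6: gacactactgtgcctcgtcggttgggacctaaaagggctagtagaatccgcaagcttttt
Rps6-ps4: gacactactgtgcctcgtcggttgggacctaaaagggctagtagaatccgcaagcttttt
Over the whole aligned coding sequence Rpl3l had 74.4% of its bases in common with Rpl3, and Rps6-ps4 had all 750 bases of Rps6. A read from Rpl3l can thus be placed, while a coding read of Rps6 matches at least one further place equally well.

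**Figure D1:**
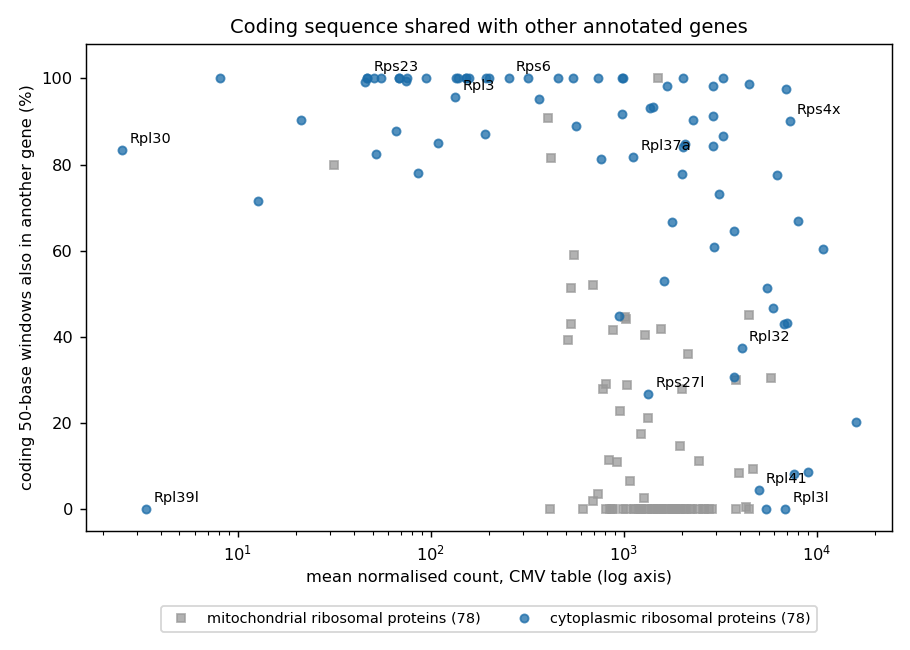
Share of the 50-base coding windows of each gene that also occur in another annotated gene (vertical axis, %), against the mean normalised count in the authors' deposited CMV table (horizontal log axis), for 78 cytoplasmic ribosomal protein genes with a coding sequence and a count above 0 (circles) and 78 mitochondrial ones (squares). Most circles lie above 50% and most squares at or near 0, and the circles under 200 counts lie high except Rpl39l.

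The share differed between members with many and few counts. Among the 41 members with an average count of 1000 or more over both of the authors' deposited tables the median share was 77.6%, and among the 20 members between 50 and 200 counts it was 100%. The 13 members between 200 and 1000 counts also had a median of 100%, over the 12 with a coding sequence, while the 8 under 50 counts had 85.3%, with 2 of the 8 below 50%. Spearman's correlation of the share with the mean count was -0.49 over the 80 members with a coding sequence in each table, members listed at 0 included. The 80 points share libraries and are not independent, so the value is a description. No mitochondrial ribosomal protein gene averaged between 50 and 200 counts and 1 of the 78 averaged under 50, while 28 of the 82 cytoplasmic members averaged under 200.

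Some members stood far below the rows of their copies. In the authors' deposited tables Rps6-ps4 had a mean of 4238 counts with hTNNT2 and 3662 with CMV, against 295 and 253 for Rps6 itself. Per exonic kilobase that is 30.4 and 30.5 times the level of Rps6, the small-subunit protein that the S6 kinases phosphorylate. The row of Gm5148, a gene that holds 91.1% of the windows of Rps23, had 694 counts per exonic kilobase with hTNNT2 and 611 with CMV, against 43.8 and 36.8 for Rps23 in the authors' deposited tables. Rpl17-ps10 stood 19.1 and 17.9 times above Rpl17 on that scale. Other copies stood below their parent, as Rps15a-ps6 did at 0.34 and 0.31 times the level of Rps15a. The sources used here do not say how reads that fit several places were counted, and the part of that choice in these levels was not tested.

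**Figure D2:**
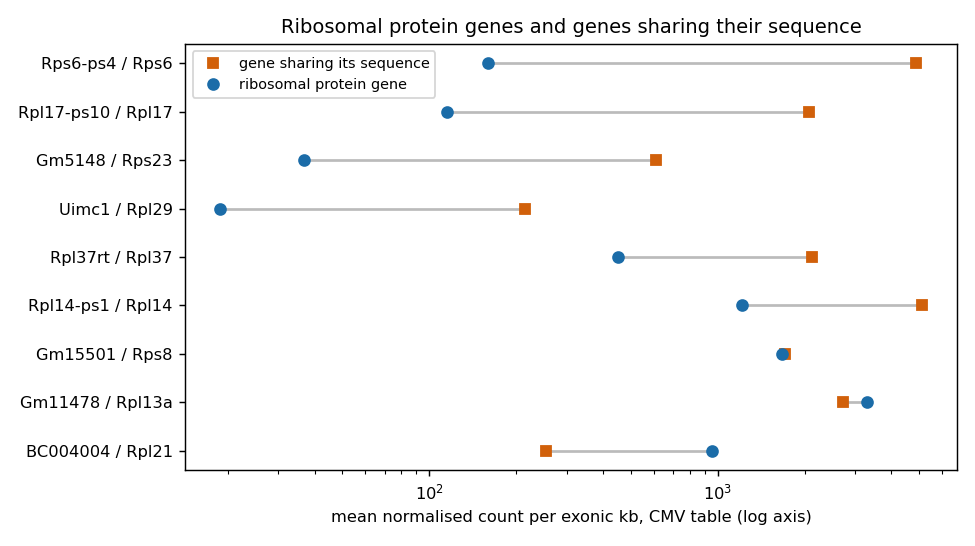
Mean normalised count per exonic kilobase in the authors' deposited CMV table (horizontal log axis) for 9 ribosomal protein genes (circles) and, on the same line, the gene with a mean count of at least 1000 that holds at least 25% of its coding windows (squares). The square lies to the right of the circle in 7 of the 9 pairs, by the widest margin for Rps6-ps4 and Rps6. Of 14 pairs whose sharing gene had at least 50 counts, these 9 were kept for its count of at least 1000. That choice favours squares on the right, so the 7 of 9 does not describe copies in general.

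Levels per exonic kilobase differed widely between members of the same particle. In the authors' deposited tables the highest included Rps15 (11949 counts per kilobase with hTNNT2 and 10688 with CMV), Rpl4 (9160 and 7902), Rpl8 (7497 and 6640) and Rplp0 (7465 and 6506), in that order in both tables. Rpl4, Rpl8 and Rplp0 belong to the large subunit, Rplp0 as the base of its acidic stalk, and Rps15 to the small one. The lowest of those above 0 were Rpl30, at 1.32 and 0.836, Rpl39l, at 4.57 and 4.06, Rpl34, at 6.08 and 4.83, Rps27, at 11.1 and 7.81, and Rpl35a, at 16.6 and 14.7 counts per kilobase in the authors' deposited hTNNT2 and CMV tables. Rpl39l is a paralogue of Rpl39 known from the mouse testis, whereas the other 4 are ubiquitous proteins that share at least 71.5% of their windows. Neighbours in this order cannot be set apart, since the authors' deposited tables give no spread of a level.

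Rpl3l was among the most abundant members. Its mean was 7746 counts with hTNNT2 and 6828 with CMV in the authors' deposited tables, against 163 and 134 for Rpl3. Per exonic kilobase this was 4715 and 4156, against 51.3 and 42.2 for Rpl3, a ratio of 91.9 with hTNNT2 and 98.6 with CMV. Between 64.9 and 69.6 was the ratio when the longest transcript served as length, and 47.1 to 50.5 when the coding sequence did. Rpl3 shared 95.7% of its windows with other genes and Rpl3l none, so the row of Rpl3 may hold less than its messages and the ratio describes these rows. As a check of the tissue, cardiomyocyte markers were abundant (Myl2, a ventricular myosin light chain, averaged 238857 counts in the authors' deposited CMV table), while 9 skeletal muscle markers summed to 209 mean counts with hTNNT2 and 142 with CMV.

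With Zeb2os, the change of Rpl3l did not pass the test under either promoter. The authors' deposited hTNNT2 table gives a log2 fold change of -0.11 ± 0.076 (SE, 95% interval -0.26 to 0.038, p = 0.144, DESeq2) and the CMV one gives 0.033 ± 0.054 (-0.073 to 0.14, p = 0.542, DESeq2). Rpl3 stood at -0.018 ± 0.073 with hTNNT2 and -0.014 ± 0.063 with CMV in the authors' deposited tables. The response of Rpl3l under hTNNT2 minus that under CMV was -0.14 (95% interval from the deposited SEs -0.33 to 0.039), which spans 0. Markers of its cell type stood the same way: 10 of 11 cardiomyocyte markers were below 0 with hTNNT2 (median -0.065) and 10 of 11 above 0 with CMV (median 0.040) in the authors' deposited tables. In bulk tissue fewer cells of a type and less RNA per cell cannot be told apart, and the part of the markers in the value of Rpl3l was not tested.

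No ribosomal protein gene was called in any comparison. With hTNNT2, 0 of 80 members passed an adjusted p of 0.05 in either direction in the authors' deposited table, in which 0.0233% of all 21461 tested genes were called higher and 0.00932% lower. With CMV the count was again 0 of 80, beside 0.00469% of 21318 genes called higher and 0% lower in the authors' deposited table. The difference hTNNT2 minus CMV, tested over 20754 genes from the deposited fold changes and SEs, called 0 of 80 members, beside 0.00482% of genes higher and 0% lower. A count of 0 among 80 genes does not stand apart from these background shares.

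At an unadjusted p under 0.05, 6 of 80 members were higher with hTNNT2 Zeb2os (7.5%) and 0 lower in the authors' deposited table, beside 2.27% of all genes higher and 1.64% lower. The CMV table had 1 of 80 higher and 0 lower, beside 0.661% and 1.01% of all genes. For the difference, 1 of 80 was higher and 0 lower, beside 1.66% and 0.988%. None of these passed adjustment over all genes.

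The 6 members under hTNNT2 were led by Rpl41, which encodes the smallest protein of the large subunit. Its log2 fold change in the authors' deposited hTNNT2 table was 0.25 ± 0.073 (SE), a fold of 1.19, at a mean of 5347 counts (DESeq2 p = 0.000682, adjusted p = 0.284). Under CMV the authors' deposited table gives 0.028 ± 0.068 at 4978 counts, and the difference was 0.22 (95% interval 0.023 to 0.41, unadjusted normal p = 0.0283, adjusted p = 1). Rps27l followed at 0.20 ± 0.076 under hTNNT2 (DESeq2 p = 0.00704, adjusted p = 0.692) and 0.011 ± 0.068 under CMV in the authors' deposited tables. It is a paralogue of Rps27 and, in human cells, a p53 target.

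Rpl39, an X-linked gene for a small protein that lines the exit tunnel of the nascent chain, had an unadjusted p under 0.05 with both promoters. The authors' deposited tables put it at 0.18 ± 0.078 with hTNNT2 (DESeq2 p = 0.0210, adjusted p = 0.953) and 0.12 ± 0.060 with CMV (p = 0.0463, adjusted p = 1), as log2 fold changes. With the CMV fold changes centred on the median gene, 0 of 80 members had an unadjusted p under 0.05, Rpl39 included. Rps14, a protein of the small subunit's platform, stood at 0.16 ± 0.069 and Rpl32 at 0.15 ± 0.066 in the authors' deposited hTNNT2 table. The adjusted p was 0.951 by DESeq2 for both. At the other end of the hTNNT2 table, among members with a mean of at least 50, stood Rps28 (-0.13), Rps2 (-0.12), Rps29 (-0.12), Rpl3l and Rpl5 (-0.096), with no unadjusted p under 0.05 among them in the authors' deposited table.

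The CMV table had other extremes. After Rpl39, its highest log2 fold changes were those of Rps20 (0.092), Rpl38 (0.086), Rpl32l (0.084) and Rps10 (0.082) in the authors' deposited table, and its lowest were Rps18 (-0.12), Rps29 (-0.080), Rpl10a (-0.076), Rpl35a (-0.075) and Rpl12 (-0.073). Rps29 was the one member among the lowest 5 of both tables. Rpl38, which in the mouse is known for its part in translating Hox messages, stood at -0.041 ± 0.083 with hTNNT2 and 0.086 ± 0.071 with CMV in the authors' deposited tables. Apart from Rpl39, the smallest unadjusted p among these was that of Rps18, 0.0755 by DESeq2.

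**Figure D3:**
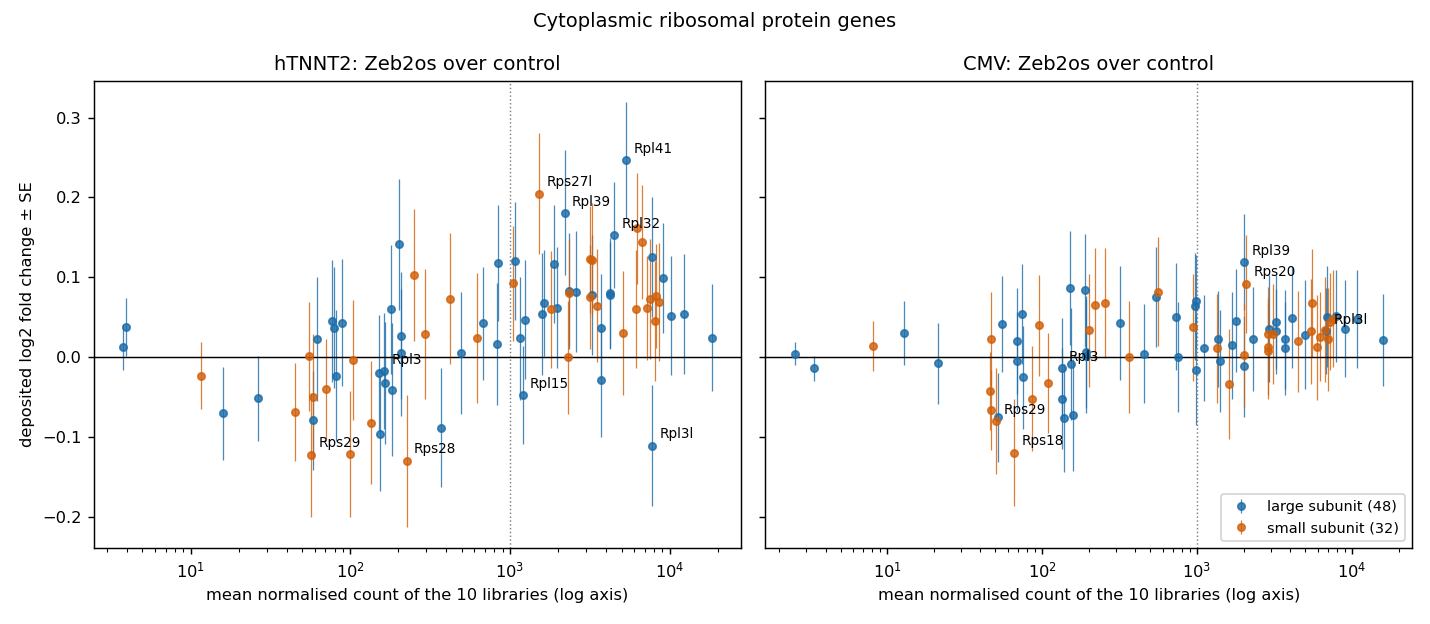
Log2 fold change of Zeb2os over control with its SE (vertical axis) against the mean normalised count (horizontal log axis) for 80 ribosomal protein genes in the authors' deposited hTNNT2 table (left) and CMV table (right), large subunit and small subunit in separate colours. Right of the dotted line at 1000 counts nearly all points lie above 0, with Rpl3l the lowest in the hTNNT2 panel, while points at 50 to 200 counts lie on both sides.

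Small fold changes pointed mostly one way. With hTNNT2, 58 of 80 members lay above 0 (72.5%, all genes 47%), and with CMV 60 of 80 (75%, all genes 48.3%), by the authors' deposited tables. The members' median was 0.044 with hTNNT2 and 0.022 with CMV, where all genes had -0.00080 and -0.00016. For the difference, 53 of 80 lay above 0, beside 49% of all genes, with a median of 0.024. The members share libraries and sequence, so the counts carry no test. The subunits were alike in this description: the large one had a median of 0.040 and the small one 0.060 with hTNNT2, and both had 0.022 and 0.023 with CMV.

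By count class the members stood as follows. Of the 41 members averaging at least 1000 counts, 38 lay above 0 with hTNNT2 (median 0.073) and 37 with CMV (median 0.029) in the authors' deposited tables. Of all genes at that count, 2764 of 6411 lay above 0 with hTNNT2 (43.1%, median -0.0099) and 3701 of 6413 with CMV (57.7%, median 0.0084). The 3 members below 0 with hTNNT2 were Rpl3l, Rpl15 (-0.047) and Rpl23 (-0.029) in the authors' deposited table. Of the 13 members between 200 and 1000 counts, 11 lay above 0 with hTNNT2 (median 0.027, all genes at that count 53.8% above 0). With CMV 13 did (median 0.037, all genes 48.9%), and this median is above that of the members with more counts. Mitochondrial ribosomal protein genes at 200 to 1000 counts had 14 of 20 above 0 with hTNNT2 (median 0.020) and 18 of 20 with CMV (median 0.048). At 1000 counts or more, 36 of 57 mitochondrial ones lay above 0 with hTNNT2 and 44 of 57 with CMV. Of the 20 members between 50 and 200 counts, 7 lay above 0 with hTNNT2 (median -0.022, all genes at that count 52.5% above 0) and 7 with CMV (median -0.020, all genes 43.1%), in the authors' deposited tables. Across the 80 members Spearman's correlation of mean count with log2 fold change was 0.58 with hTNNT2 and 0.42 with CMV, while across all tested genes it was -0.068 and 0.11 in the authors' deposited tables.

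The promoters share no mouse, and 34 of the 41 members at 1000 counts or more lay above 0 in both of the authors' deposited tables, with 0 below 0 in both. Of all 6411 genes at that count, 1660 lay above 0 in both and 1608 below 0 in both. Among the 26 tested members averaging under 200 counts, 5 were above 0 in both and 12 below 0 in both. Over all 20754 genes tested with both promoters, at any count, 5030 lay above 0 in both and 5668 below 0 in both. Within each promoter the members share libraries and sequence, so these counts too carry no test.

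Most members with sequence of their own had high counts: 12 of the 15 that shared under 50% of their windows averaged 1000 counts or more. The reverse did not hold, since 29 of the 41 members at that count shared 50% or more. Of the 14 tested members that shared under 50% of their windows, 13 lay above 0 with hTNNT2, with a median of 0.071, and 13 with CMV, with a median of 0.030, in the authors' deposited tables. The exception was Rpl3l with hTNNT2 and Rpl39l with CMV. Of the 25 members with every window shared, 13 lay above 0 with hTNNT2 (median 0.00014) and 17 with CMV (median 0.020) in the authors' deposited tables. The 9 rows of sequence-sharing genes with at least 1000 counts, chosen after their values were seen, had log2 fold changes of 0.0051 to 0.12 with hTNNT2 and of -0.030 to 0.075 with CMV. Rps6-ps4, for one, stood at 0.076 ± 0.070 with hTNNT2 and 0.036 ± 0.061 with CMV, beside 0.028 ± 0.081 and 0.068 ± 0.069 for Rps6 in the authors' deposited tables.

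The genes named as paralogues had values on both sides of 0. With hTNNT2, Rps27l stood at 0.20 in the authors' deposited table while Rps27, with a mean of 11.6 counts, stood at -0.023 ± 0.042. At so few counts the small SE of Rps27 does not show a precise value. Rps4l stood at 0.10 ± 0.083 beside 0.076 ± 0.065 for the X-linked Rps4x, and Rpl32l, like Rps4l an annotated pseudogene, at 0.14 ± 0.082 beside 0.15 ± 0.066 for Rpl32 in the authors' deposited hTNNT2 table. Outside the name pattern, Rpl22l1 stood at 0.010, Rpl36al at -0.0054 and Rpl7l1 at 0.015, beside 0.078 for Rpl22, 0.043 for Rpl36a and 0.099 for Rpl7 in the authors' deposited hTNNT2 table. With CMV the same 3 stood at 0.025, 0.028 and 0.040, beside 0.022, -0.0053 and 0.051 in the authors' deposited table. Rpl39l averaged 3.80 counts with hTNNT2 and 3.37 with CMV, against 2199 and 2013 for Rpl39.

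**Figure D4:**
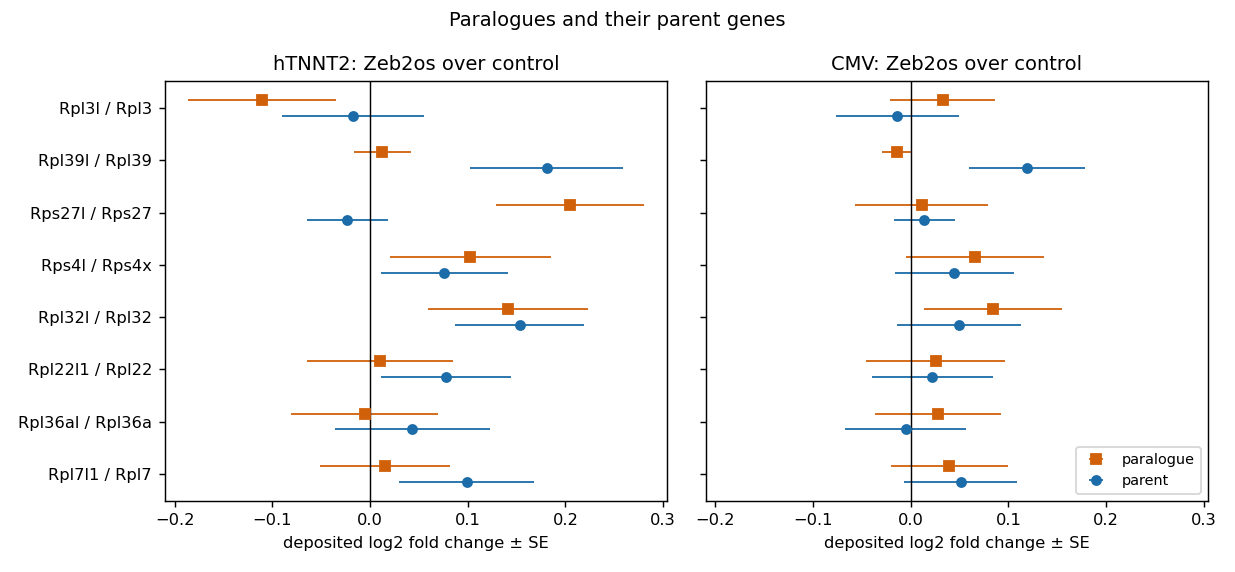
Log2 fold change of Zeb2os over control with its SE (horizontal axis) for 8 genes named as paralogues, 2 of them annotated pseudogenes (squares) and their parent genes (circles) in the authors' deposited hTNNT2 table (left) and CMV table (right). Rpl3l is the lowest point of the hTNNT2 panel and Rps27l the highest, and in the CMV panel most SE bars reach 0.

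The hTNNT2 groups differed in sex, so X-linked members are given apart. Rpl10, Rpl36a, Rpl39 and Rps4x all lay above 0 with hTNNT2, from 0.027 to 0.18, and 3 of the 4 with CMV, from -0.0053 to 0.12, in the authors' deposited tables. Their median was 0.060 with hTNNT2, beside 0.044 for all members. The part of sex in these values was not tested.

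Genes that work with the ribosome lay nearer to 0 than the members with hTNNT2, by their medians. Of 78 mitochondrial ribosomal protein genes, 50 lay above 0 with hTNNT2 (median 0.015) and 63 with CMV (median 0.021), with 0 and 1 at an unadjusted p under 0.05, the 1 being Mrpl22 (0.16 ± 0.063) in the authors' deposited CMV table. Of 36 translation factors, 22 lay above 0 with hTNNT2 (median 0.010) and 31 with CMV (median 0.034), in the authors' deposited tables. Among them Eef1a1, the factor that brings aminoacyl-tRNA to the ribosome and itself a TOP gene, stood at 0.16 ± 0.076 with hTNNT2 in the authors' deposited table (DESeq2 p = 0.0344). Of 36 ribosome biogenesis genes, which make and process ribosomal RNA and assemble the subunits, 10 lay above 0 with hTNNT2 (median -0.018) and 21 with CMV (median 0.0037) in the authors' deposited tables.

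Of 20 mTOR and Myc regulators, which raise or restrain ribosome supply, 4 lay above 0 with hTNNT2 (median -0.032) and 11 with CMV (median 0.0017) in the authors' deposited tables. The list mixes both kinds, so these values give no direction of that control. Myc, which drives transcription of ribosome genes, was one of the 4, at 0.23 ± 0.083 with hTNNT2 (DESeq2 p = 0.00552, adjusted p = 0.673) and -0.075 ± 0.069 with CMV in the authors' deposited tables. Of 9 spliced hosts of small nucleolar RNAs, several of which are TOP genes, 7 lay above 0 with hTNNT2 (median 0.022) and 3 with CMV (median -0.026). Of 8 ribosomal proteins and partners outside the name pattern, 7 were tested and Rps27rt was listed at 0. Of the 7, 6 lay above 0 under each promoter, with medians of 0.036 with hTNNT2 and 0.028 with CMV and no unadjusted p under 0.05 in the authors' deposited tables. No gene of these 6 lists passed an adjusted p of 0.05 under either promoter.

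**Figure D5:**
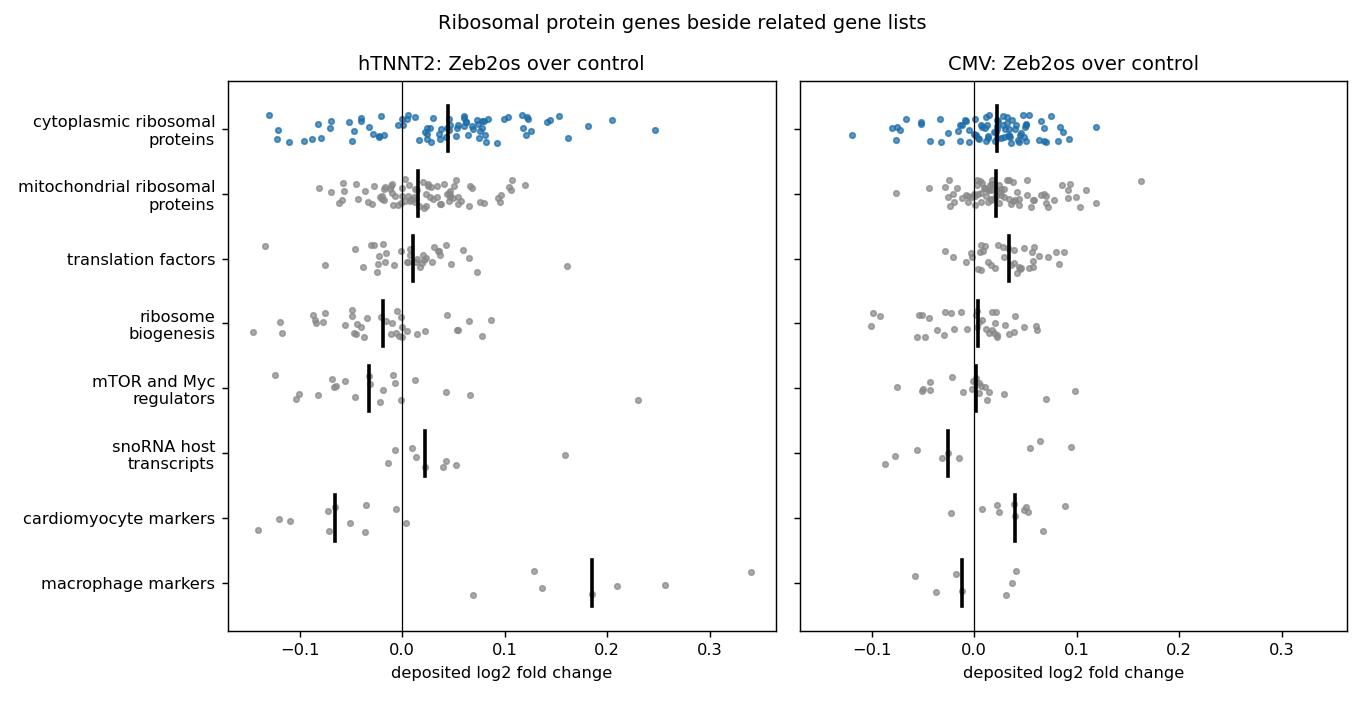
Log2 fold change of Zeb2os over control (horizontal axis) of each tested gene in the authors' deposited hTNNT2 table (left) and CMV table (right), by gene list, with the list's median as a black bar and the 80 cytoplasmic ribosomal proteins at the top. Their median lies at 0.044 with hTNNT2 and 0.022 with CMV, and cardiomyocyte and macrophage markers lie on opposite sides of 0 in the hTNNT2 panel.

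Markers of macrophages, fibroblasts and smooth muscle lay mostly above 0 with hTNNT2, as did most members, whereas endothelial and lymphoid markers did not. Lyz2, a lysozyme of macrophages, passed the test (0.34 ± 0.071, adjusted p = 0.0154 by DESeq2 in the authors' deposited table). With hTNNT2, 7 of 7 macrophage markers (median 0.18, summed mean 16037 counts), 6 of 7 fibroblast markers (median 0.12, 93449 counts) and 6 of 6 smooth muscle and pericyte markers (median 0.11, 94365 counts) lay above 0, and 1 of 11 cardiomyocyte markers did, in the authors' deposited table. With CMV it was 3 of 7 (14153 counts), 5 of 7 (80594 counts) and 0 of 6 (80679 counts), and 10 of 11 cardiomyocyte markers in the authors' deposited table. Endothelial markers stood at 3 of 6 with hTNNT2 and 0 of 6 with CMV, and none of the markers of these 5 cell types was listed at 0. Lymphoid markers, which summed to 184 counts with hTNNT2 and 135 with CMV, stood at 1 of 7 and 6 of 7, and 4 of 5 erythroid markers were listed at 0, while the fifth, Alas2, averaged 3556 counts with hTNNT2 and 2940 with CMV in the authors' deposited tables. Their part in the members' fold changes was not tested. Each cell type makes ribosomes, and the members' summed mean, 207285 counts with hTNNT2 and 182436 with CMV, was 0.404% and 0.412% of all counts in the authors' deposited tables. These shares pool Zeb2os and control and leave out counts in the rows of sequence-sharing genes outside the members.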

How the data were processed

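Total RNA of 20 heart apices was depleted of ribosomal RNA, per the labels' protocols. Per the submitters' processing notes, the authors used Trim Galore, DESeq2 and the builds GRCm38 and mm10, while the sources used here do not give the aligner, read counter or strand setting. Per the file headers, each deposited table gives per gene a mean normalised count (a signal), a log2 fold change with its SE, a Wald statistic (a score), and a p-value with its adjusted p-value. The deposited statistic was sign-flipped to match the fold change, read as Zeb2os over control. The deposited SEs were smallest for genes with few counts (median 0.0109 under 10 counts and 0.0576 from 1000 counts on, CMV). Fold changes of such genes also lay close to 0. The CMV quartiles of all genes were -0.0093 and 0.0046 under 50 counts, against -0.021 and 0.036 from 1000 counts on. Whether the deposited fold changes and SEs had been shrunk towards 0 was not tested. A small SE at few counts, or an interval drawn from it, thus does not show a precise fold change. The counts of all genes summed to 51284505 with hTNNT2 and 44295571 with CMV. The depth of each library is unknown.

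Called means a deposited adjusted p under 0.05. The difference between promoters was tested with a 2-sided normal p from the deposited SEs and Benjamini-Hochberg adjustment over 20754 genes. The step was run on simulated data whose noise was drawn from the same SEs, which checks the code alone. Whether the deposited SEs measure the sampling error of each fold change was not tested. Lengths and coordinates came from GENCODE M21 for all 82 members, and shared 50-base windows for the 80 with a coding sequence. RefSeq starts are on GRCm38.p6. The genes named were set by rule: paralogue pairs, members with an unadjusted p under 0.05, the 5 highest and lowest fold changes and levels, X-linked members and up to 3 leading genes of each list. The members and lists were chosen with earlier results of these data known. Python 3.11.15, pandas 2.3.3 and scipy 1.17.1 were used. Some members that the rule would name are not reported here.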

Additional observations from a re-analysis of the deposited data

How the results depend on the processing

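The count of called members stayed at 0 in all 28 alternative values, which covered readjustment over every p-value, minimum mean counts of 10 and 50, an adjusted p of 0.1 for each promoter, centring on the median gene, and a difference of Wald statistics. All 30 alternative values of the median, weighted means among them, stayed above 0. They ran from 0.033 to 0.074 with hTNNT2 (main 0.044), from 0.011 to 0.030 with CMV (main 0.022) and from 0.013 to 0.040 for the difference (main 0.024). The alternatives by count only left out members with few counts. Taken alone, members at 50 to 200 counts had medians of -0.022 with hTNNT2 and -0.020 with CMV, and those under 50 counts -0.037 and -0.0016. Members at 200 to 1000 counts had 0.027 and 0.037. Moves of over 1.5 times were those to the members at 1000 counts or more (0.074 with hTNNT2, 0.040 for the difference) and to members sharing under 50% (0.071 with hTNNT2). The others were to members sharing at least 50% (0.013 for the difference) and to a mean weighted by the inverse squared SE (0.011 with CMV). That weighting favours rows with few counts, whose SEs were smallest, and is no more precise for it. Centred on the median gene, 58 of 80 members lay above 0 with hTNNT2 (6 at an unadjusted p under 0.05) and 56 of 80 with CMV (0 at that p). The ratio of Rpl3l to Rpl3 moved with the length used: 64.9 with hTNNT2 and 69.6 with CMV for the longest transcript, 47.6 and 51.0 without length, and 47.1 and 50.5 for the coding length, the last chosen after seeing the data. The splits by shared sequence were also chosen after seeing the data. No paired analysis was possible because the deposited tables hold no values per mouse, and for the same reason no replicate could be left out. The precision of each value is limited by the deposited SE, and the reads lost from or gained by shared sequence could not be measured.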
